A study of Mus musculus with 8 samples.

Results

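The suprabasal keratins examined here were Krt1, Krt10, Krt77, Krt78, Krt80 and Krt23. They were taken by name, as the probe sets of the array that map to 1 of these 6 symbols only. Each symbol had exactly 1 such probe set, so 6 of the 45141 probe sets, and 6 of the 17097 genes they stand for, were followed, and all 6 passed the filter on dim values. Where a gene has several probe sets, the rule lets the one with the highest mean lead, a choice that did not arise for these genes. Krt77 had been singled out because of its difference between treated and untreated mice. For that reason every vismodegib difference of the 6 genes is given as a description, with no test. Tests are kept for the differences between sorted populations. The interaction of population and treatment is tested too, but it is made of the same vismodegib differences. Its p-values are therefore limited by the choice of the genes.

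RNA came from cells sorted out of the back skin of tumour-bearing mice, with the genotype K14-CreER/Ptch1cKO in every group. In these mice an inducible Cre driven by the keratin 14 promoter, active in basal keratinocytes, removes Ptch1, the receptor that restrains Hedgehog signalling, and basal cell carcinomas form. A GFP reporter marked Lgr5, a receptor of hair follicle stem cells, and Lrig1, which marks progenitors of the upper follicle, was on the surface of all cells sorted. The 4 groups, each with n = 2 mice, were Lgr5-negative Lrig1+ and Lgr5-positive Lrig1+ cells of untreated mice and the same populations of mice given vismodegib, an inhibitor of the Hedgehog transducer Smoothened. Both populations of a mouse came from that animal, so there were 4 mice and 8 arrays; the labels do not state the dose or length of treatment, the age of the mice or the way the Cre was induced. Every value below is a log2 signal or a log2 difference, so 1 unit is a doubling, and the number of arrays limits the precision.

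Keratins build the intermediate filaments of epithelial cells from pairs of a type I and a type II chain. Basal keratinocytes hold Krt5 and Krt14, and cells that leave the basal layer switch to Krt1 (type II) and Krt10 (type I), the pair that fills the spinous layer. Krt77 (keratin 1b), Krt78 and Krt80 are further type II chains found above the basal layer or in differentiating epithelia, and Krt23 is a type I chain that is best known as an inducible keratin of other epithelia. The genes of type II chains lie together on chromosome 15 and those of type I chains, apart from Krt18, on chromosome 11.

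RefSeq promoter entries (build GRCm38.p6) were matched for 4 of the 6 genes, namely Krt10, Krt23, Krt77 and Krt78. The 250 bases before the start of Krt77 (chr15:101869706-101869955, minus strand) and Krt10 (chr11:99389365-99389614, minus strand) are shown. Of the 4 matched genes, these had the clearest treatment and population differences. The start used for Krt10 lies inside the span annotated for the gene (99385254 to 99397449). Capitals mark matches, on either strand, to the 7 motifs searched.
Krt77: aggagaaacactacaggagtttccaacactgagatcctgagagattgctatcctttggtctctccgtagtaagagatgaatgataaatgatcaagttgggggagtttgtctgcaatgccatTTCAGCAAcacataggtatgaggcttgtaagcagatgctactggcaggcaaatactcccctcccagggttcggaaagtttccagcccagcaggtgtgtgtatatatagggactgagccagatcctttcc
Krt10: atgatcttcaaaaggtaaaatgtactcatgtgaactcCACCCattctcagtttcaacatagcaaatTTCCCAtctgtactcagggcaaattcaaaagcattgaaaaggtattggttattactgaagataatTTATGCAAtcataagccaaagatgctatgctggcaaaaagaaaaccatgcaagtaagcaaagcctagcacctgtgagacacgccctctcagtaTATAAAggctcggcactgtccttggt

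The core promoter motif searched was TATAAA. Motifs of general epidermal regulators were TGANTCA for AP-1, CACCC for Krüppel-like factors, TTGCNNAA for C/EBP and AACCNGTT for the Grainyhead-like factors (GRHL). Those of signalling pathways were TGGGAA for RBPJ, which carries Notch signals, and GACCACCCA for the GLI factors, which carry Hedgehog signals. No 2 matches overlapped in these windows. The C/EBP letters were in the windows of Krt77, Krt10 and Krt23 and are in 9.56% of the 32851 RefSeq windows of this length that were counted. The count left out the windows of a chromosome that holds none of these genes. The Krt10 window alone also held TATAAA, 26 bases before the start (12.4% of the windows counted), CACCC (52%) and TGGGAA (21.6%). The letters of the AP-1, GLI and GRHL motifs, present in 6.75%, 0.225% and 1.79% of the windows counted, were in none of the 4. The Krt78 window matched none of the 7 motifs. These are matches of letters in a short window and describe no binding.

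The arrays carried RNA of keratinocytes in every group. The basal keratins Krt5 and Krt14 lay between 12.23 and 12.92 on all 8 arrays, near the top of the scale (13.30 to 13.41). The sorting gene Lgr5 had means of 10.99 in Lgr5-positive against 8.46 in Lgr5-negative cells of untreated mice and of 9.74 against 5.15 after vismodegib. The Hedgehog target Gli1 lay between 8.75 and 10.13 untreated and between 6.37 and 6.56 after vismodegib. The untreated Lgr5-positive arrays stood apart from the other 6 on the first principal component (48.9 and 45.4, against −31.1 to −7.13), and several differences below rest on them. In bulk RNA of sorted cells, fewer cells with a transcript and less of it per cell cannot be told apart.

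The 6 keratins fell into 3 patterns. Krt1 and Krt10 were lowest in untreated Lgr5-positive cells and high in the other 3 groups. Krt77 and Krt80 were higher after vismodegib in both populations, and within each treatment the Lgr5-positive cells lay below the Lgr5-negative ones. Krt78 and Krt23 lay at a similar level throughout. Across the 8 arrays, Pearson's r was 0.95 between Krt1 and Krt10 and 0.99 between Krt77 and Krt80, but 0.46 between Krt1 and Krt77, its neighbour in the genome. These correlations describe 8 arrays that share 4 groups and 4 mice.

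**Figure D1:**
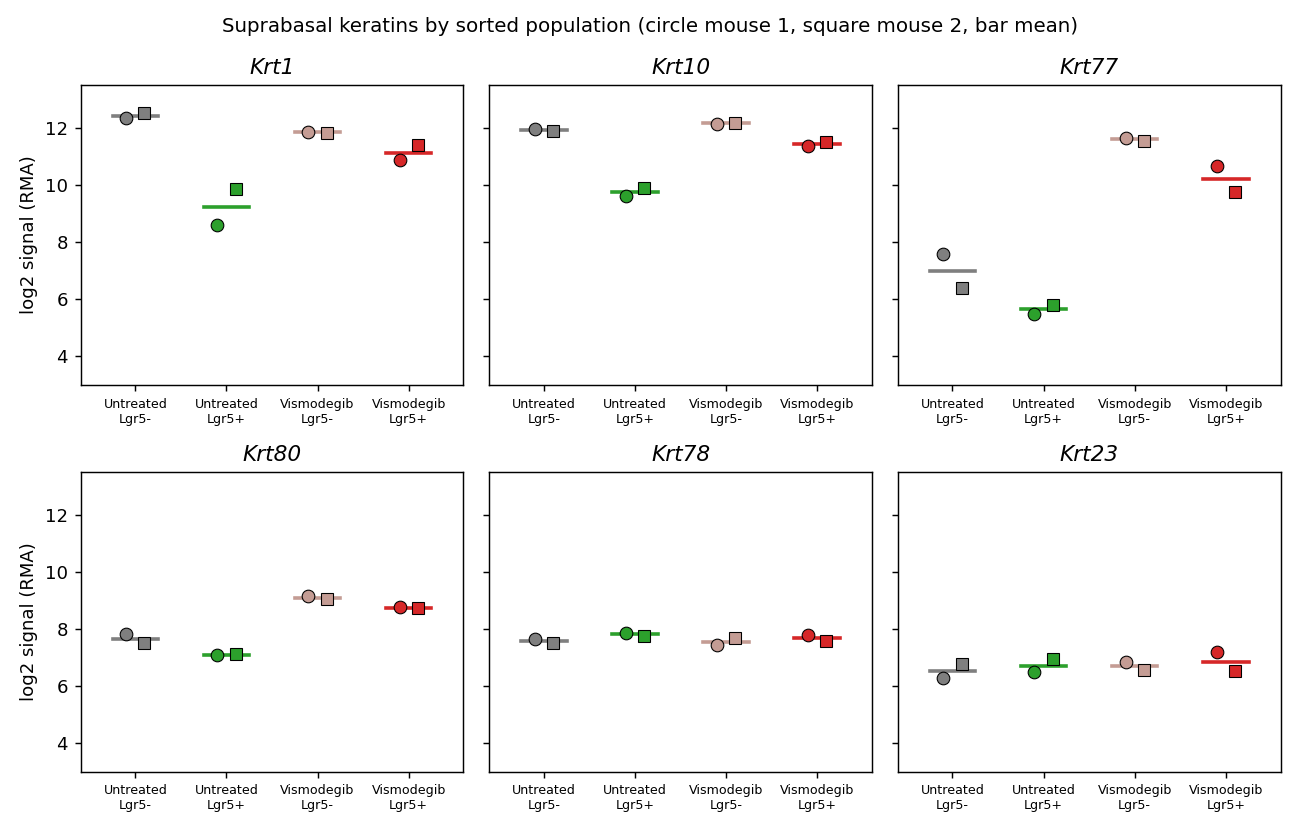
Log2 signal of the 6 suprabasal keratins on each of the 8 arrays, by sorted population and treatment. Circles are mouse 1 and squares mouse 2 of each treatment, and bars are group means. Krt1 and Krt10 dip in untreated Lgr5-positive cells, Krt77 and Krt80 are higher after vismodegib in both populations, and Krt78 and Krt23 stay within 7.43 to 7.86 and 6.29 to 7.18. Levels of different genes are read by different probe sets and cannot be compared with each other.

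Krt1, the type II chain of the spinous pair, lay at 12.35 and 12.51 in untreated Lgr5-negative cells and at 8.61 and 9.87 in the Lgr5-positive cells of the same mice. After vismodegib it lay at 11.87 and 11.81 in Lgr5-negative and at 10.87 and 11.39 in Lgr5-positive cells. Only the untreated Lgr5-positive arrays were thus under 10, and none of the 4 groups overlapped. A gap between a pair of groups is common with so few arrays. For vismodegib in Lgr5-negative cells, 26.5% of all genes had treated arrays wholly above untreated ones and 24.9% had them wholly below. No such share is given for the population comparisons. The lack of overlap is therefore a description only, here and below.

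Krt10, the type I partner of Krt1, was likewise lowest in untreated Lgr5-positive cells, but highest in Lgr5-negative cells after vismodegib, where Krt1 was highest in those of untreated mice. It lay at 11.97 and 11.90 in untreated Lgr5-negative cells and at 9.61 and 9.91 in untreated Lgr5-positive cells. After vismodegib the values were 12.13 and 12.18 in Lgr5-negative and 11.37 and 11.50 in Lgr5-positive cells. The groups did not overlap, which is a description only, and the untreated Lgr5-positive arrays were again the low ones.

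In untreated mice, both chains of the spinous pair were lower in Lgr5-positive than in Lgr5-negative cells. Krt1 was 9.13-fold lower (log2 difference −3.19 ± 0.37, SE from limma, adjusted p = 0.00231) and Krt10 4.52-fold lower (−2.18 ± 0.13, adjusted p = 0.000364). Within mouse 1 the differences were −3.74 and −2.36, and within mouse 2 they were −2.64 and −1.99. Krt80 was lower as well, by 1.47-fold (−0.56 ± 0.13, adjusted p = 0.0298). That call was lost without any one of the untreated Lgr5-negative arrays (adjusted p = 0.161 and 0.0518 without mouse 1 and mouse 2), untreated Lgr5-positive arrays (0.0872 and 0.078) or vismodegib Lgr5-positive arrays (0.0562 each), and with only the 4 arrays compared (0.0611).

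Krt77 differed in the same direction in untreated mice, at 7.60 and 6.41 in Lgr5-negative against 5.49 and 5.81 in Lgr5-positive cells. The difference of −1.36 ± 0.41 did not pass (adjusted p = 0.062, 95% interval −2.32 to −0.40). With the mouse as a block, which pairs both populations of an animal, it passed with an adjusted p = 0.0452. It also passed with a filter at the median (0.0437). It did not pass with array weights (0.0968), cyclic loess (0.0847) or no filter (0.0817). Without the untreated Lgr5-negative array of mouse 2 the difference was −1.95. Within mouse 1 the difference was −2.11 and within mouse 2 it was −0.60. Without the untreated Lgr5-negative array of mouse 1 it was −0.76.

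Krt78 (0.23 ± 0.14, adjusted p = 0.297) and Krt23 (0.19 ± 0.27, adjusted p = 0.669) did not pass, with 95% intervals of −0.10 to 0.56 and −0.44 to 0.82. In all, 3 of the 6 keratins were lower and 0 higher in untreated Lgr5-positive cells, where 10.9% of the 14403 genes tested were lower and 6.21% higher, and the median of the 6 was −0.96 against 0.02 over all genes.

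After vismodegib the population differences of the spinous pair were smaller. Krt1 was at −0.71 ± 0.37 (adjusted p = 0.496) and Krt10 at −0.72 ± 0.13 (adjusted p = 0.0884), with 95% intervals of −1.57 to 0.15 and −1.02 to −0.42. Within mouse 1 the differences were −1.0 and −0.75 and within mouse 2 they were −0.41 and −0.68, so the Lgr5-positive cells lay lower in both mice. Krt77 was at −1.40 ± 0.41 (adjusted p = 0.24), close to its untreated difference, and Krt80 at −0.36 ± 0.13 (adjusted p = 0.348). Krt78 (0.11 ± 0.14) and Krt23 (0.15 ± 0.27) did not pass either. Thus 0 of the 6 passed after vismodegib by limma, where 0.472% of all genes did in either direction, while Krt10, Krt77 and Krt80 had unadjusted p-values of 0.000853, 0.0103 and 0.0291.

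Over both treatments, 4 of the 6 keratins were lower in Lgr5-positive cells and 0 higher, where 8.37% of all genes were lower and 5.44% higher. Krt1 was at −1.95 ± 0.26 (adjusted p = 0.00457), Krt10 at −1.45 ± 0.10 (adjusted p = 0.000572), Krt77 at −1.38 ± 0.29 (adjusted p = 0.0226) and Krt80 at −0.46 ± 0.09 (adjusted p = 0.0207). All 4 were lower in Lgr5-positive cells of each of the 4 mice. The call of Krt77 was lost without the untreated Lgr5-positive array of mouse 1 (adjusted p = 0.0623) or, after vismodegib, the Lgr5-negative array of mouse 1 (0.0628) or the Lgr5-positive array of mouse 2 (0.0745). That of Krt80 was lost without the untreated Lgr5-negative array of mouse 1 (0.0662) or, after vismodegib, the Lgr5-negative array of mouse 1 (0.0565) or either Lgr5-positive array (0.0631 and 0.0785). The calls of Krt1 and Krt10 were kept without any single array.

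**Figure D2:**
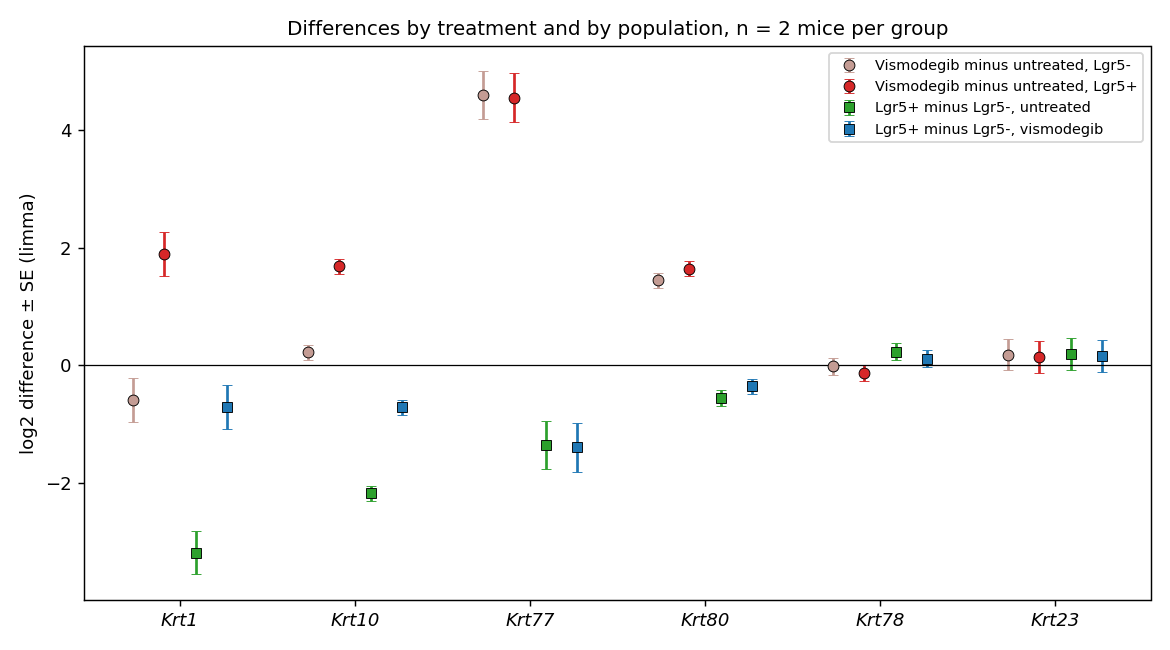
Log2 differences of the 6 keratins, with the standard error from limma as error bars, for vismodegib against untreated cells in each population (circles) and Lgr5-positive against Lgr5-negative cells in each treatment (squares), n = 2 mice per group. Krt77 has vismodegib differences of 4.59 and 4.55, whereas Krt1 and Krt10 have their largest differences between the untreated populations (−3.19 and −2.18).

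Krt77 lay at 11.64 and 11.55 in Lgr5-negative and at 10.66 and 9.74 in Lgr5-positive cells after vismodegib, against the untreated 7.60 and 6.41, and 5.49 and 5.81, given above. The 4 treated arrays lay above the 4 untreated ones with no overlap, and in untreated Lgr5-positive cells the probe set was below the median of its array (the 37.2 and 43.5 percentiles), whereas on the treated arrays it was between the 93.2 and 99.2 percentiles. The order of groups was vismodegib Lgr5-negative, vismodegib Lgr5-positive, untreated Lgr5-negative and untreated Lgr5-positive. Neighbours in this order did not overlap, which is a description only. The populations of a treatment did not differ past the threshold in either treatment. The log2 difference between treated and untreated cells was 4.55 ± 0.41 in Lgr5-positive and 4.59 ± 0.41 in Lgr5-negative cells, and 4.57 ± 0.22 with the arrays of a mouse averaged. By size it was at rank 3 and 1 of the 14403 genes in the Lgr5-positive and Lgr5-negative comparisons. Since Krt77 was chosen for this difference, the ranks are a description only. Without either untreated Lgr5-negative array the difference in Lgr5-negative cells was 5.19 or 4.0.

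Krt80, the other type II chain of this pattern, lay at 7.82 and 7.50 in untreated and at 9.14 and 9.05 in treated Lgr5-negative cells. In Lgr5-positive cells it lay at 7.09 and 7.11 untreated and at 8.75 and 8.72 treated. As for Krt77, all treated arrays were above all untreated ones, but the step was smaller, at 1.64 ± 0.13 in Lgr5-positive and 1.44 ± 0.13 in Lgr5-negative cells, or 3.11-fold and 2.71-fold. The order of the 4 groups was that of Krt77.

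For the spinous pair the vismodegib differences were not alike in the 2 populations. Krt1 differed by 1.89 ± 0.37 in Lgr5-positive cells, with treated arrays above untreated ones, and by −0.59 ± 0.37 in Lgr5-negative cells, with treated arrays below untreated ones. Krt10 differed by 1.68 ± 0.13 and 0.22 ± 0.13, with treated arrays above untreated ones in both. Both treated Lgr5-positive arrays stayed below the Lgr5-negative arrays of untreated mice for Krt1 and Krt10. The size for Krt1 leans on single arrays, since it was 1.26 or 2.52 without the untreated Lgr5-positive array of mouse 1 or mouse 2.

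The remaining members showed little. Krt78, a type II chain, lay between 7.43 and 7.86 on all 8 arrays and Krt23, the type I chain, between 6.29 and 7.18. Their vismodegib differences were −0.13 ± 0.14 and 0.14 ± 0.27 in Lgr5-positive cells and −0.02 ± 0.14 and 0.18 ± 0.27 in Lgr5-negative cells, and treated and untreated arrays overlapped. Counting the 6, 4 had treated Lgr5-positive arrays wholly above the untreated ones (27.9% of all genes), and in Lgr5-negative cells 3 lay wholly above (26.5%) and 1, Krt1, wholly below (24.9%). The choice of the genes used these comparisons, so nothing is read from the counts.

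Whether the vismodegib difference was itself different between populations was tested as an interaction, positive where Lgr5-positive cells gained more. Krt10 passed, with a difference of 1.46 ± 0.19 (adjusted p = 0.0209). It did not pass without the untreated Lgr5-negative array of mouse 1 or 2 (adjusted p = 0.0828 and 0.108) or the vismodegib Lgr5-positive array of mouse 1 or 2 (0.0833 and 0.0725). Krt1 had a larger but less certain difference of 2.48 ± 0.52 (adjusted p = 0.0718), which passed with the mouse as a block (adjusted p = 0.0356) and without either untreated Lgr5-positive array (0.0409 and 0.012). For Krt77 the difference was −0.04 ± 0.58 (adjusted p = 0.979), with a 95% interval of −1.39 to 1.31 that leaves room for an unequal gain of more than 2-fold either way. Krt80 (0.20 ± 0.19), Krt78 (−0.12 ± 0.19) and Krt23 (−0.04 ± 0.38) did not pass. So 1 of the 6 had a higher gain in Lgr5-positive cells by limma, where 0.993% of all genes did. The interaction is made of the vismodegib differences that the choice of the genes used. Nothing is therefore read from this count, and the p-values carry that limit.

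The signals of Krt77 and of the spinous pair were also compared on the same array. The log2 signal of Krt77 minus that of Krt1, whose absolute size has no meaning across probe sets, lay between −6.10 and −3.12 on the untreated arrays and between −1.65 and −0.21 on the treated ones. For Krt77 minus Krt10 the ranges were −5.50 to −4.10 and −1.76 to −0.48. Treated and untreated ranges do not overlap for either, which restates the vismodegib difference for which Krt77 was chosen and is given as a description. Krt1 minus Krt10 lay between −1.0 and 0.61 untreated and between −0.50 and −0.11 treated, which overlap.

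Of the 41 keratin genes with a probe set of their own, 38 passed the filter on dim values, and the 6 suprabasal ones were set among them. The keratins named here and in the next paragraph that are not suprabasal were chosen by family or position after their values were seen. Krt77 had the largest vismodegib difference of the 38 in both populations, a rank in the difference for which it was chosen and so a description only. Among upward differences in Lgr5-positive cells it was followed by Krt1, the simple epithelial keratin Krt7 (1.84 ± 0.25, adjusted p = 0.00401), Krt10 and Krt80. Among upward differences in Lgr5-negative cells it was followed by Krt15, a keratin of basal and bulge cells (2.15 ± 0.17, adjusted p = 0.00185), and Krt80, while Krt6b stood at −2.50 ± 0.65 (adjusted p = 0.0902). Between the untreated populations, Krt1 had the second largest reduction of the 38 in Lgr5-positive cells. The largest was that of the wound keratin Krt6b (−3.94 ± 0.65, adjusted p = 0.00785). Krt1 was followed by the wound keratin Krt16 (−2.36 ± 0.17, adjusted p = 0.000544) and Krt10. Krt16 also fell in Lgr5-negative cells after vismodegib (−1.93 ± 0.17, adjusted p = 0.00286). Of the 4 basal and outer root sheath keratins tested, 1 was higher in untreated Lgr5-positive cells (Krt15, 1.65 ± 0.17, adjusted p = 0.00163) and 0 lower. Over all genes, 6.21% were higher and 10.9% lower in that comparison.

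**Figure D3:**
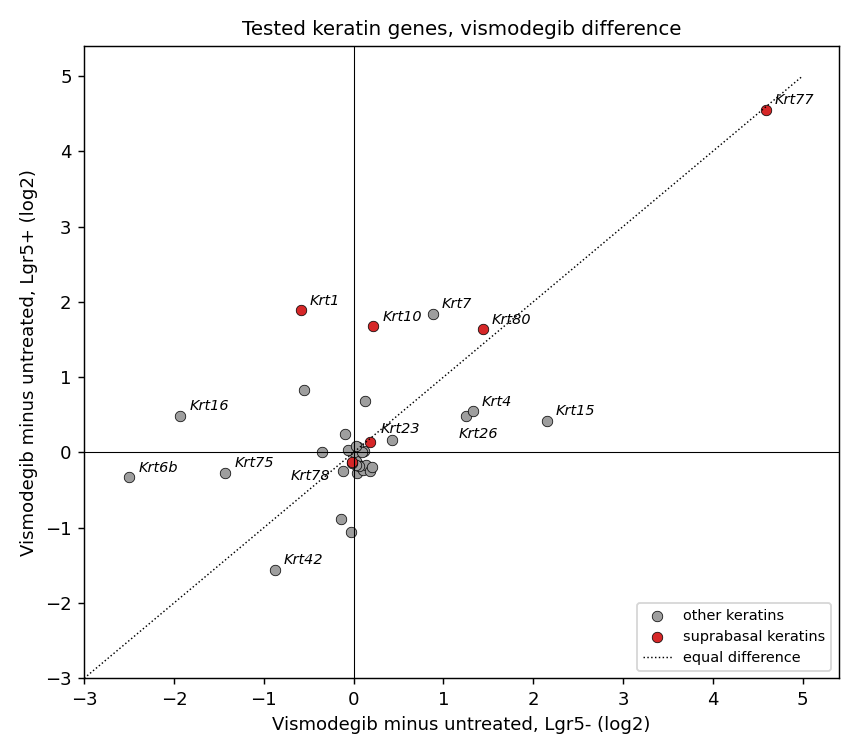
Vismodegib minus untreated log2 difference of the 38 tested keratin genes in Lgr5-negative (x axis) and Lgr5-positive cells (y axis), n = 2 mice per group. Red points are the 6 suprabasal keratins, and the dotted line marks equal differences. Krt77 (4.59 and 4.55) and Krt80 (1.44 and 1.64) lie near the line, Krt1 (−0.59 and 1.89) and Krt10 (0.22 and 1.68) above it, and Krt15 (2.15 and 0.42) below it.

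Krt77 and Krt1 are neighbours on chromosome 15 (GRCm38.p6), at 101858731 to 101869706 and 101845426 to 101850786, with 7944 bases between them. On the far side of Krt1 lies Krt2, which was too dim to test. On the far side of Krt77 follow Krt4, a keratin of internal stratified epithelia, the upper follicle keratin Krt79, Krt78 and the simple epithelial keratins Krt8 and Krt18, the last too dim to test. Krt4 was higher after vismodegib in Lgr5-negative cells (1.33 ± 0.15, adjusted p = 0.00615) and stood at 0.55 ± 0.15 (adjusted p = 0.0566) in Lgr5-positive cells. Krt79 was higher in Lgr5-positive cells (0.68 ± 0.13, adjusted p = 0.0177) and stood at 0.13 ± 0.13 in Lgr5-negative cells. Krt8 differed by 0.09 ± 0.12 and 0.01 ± 0.12 in Lgr5-negative and Lgr5-positive cells and did not pass in either. The large step of Krt77 was therefore not seen at the probe sets of its tested neighbours.

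**Figure D4:**
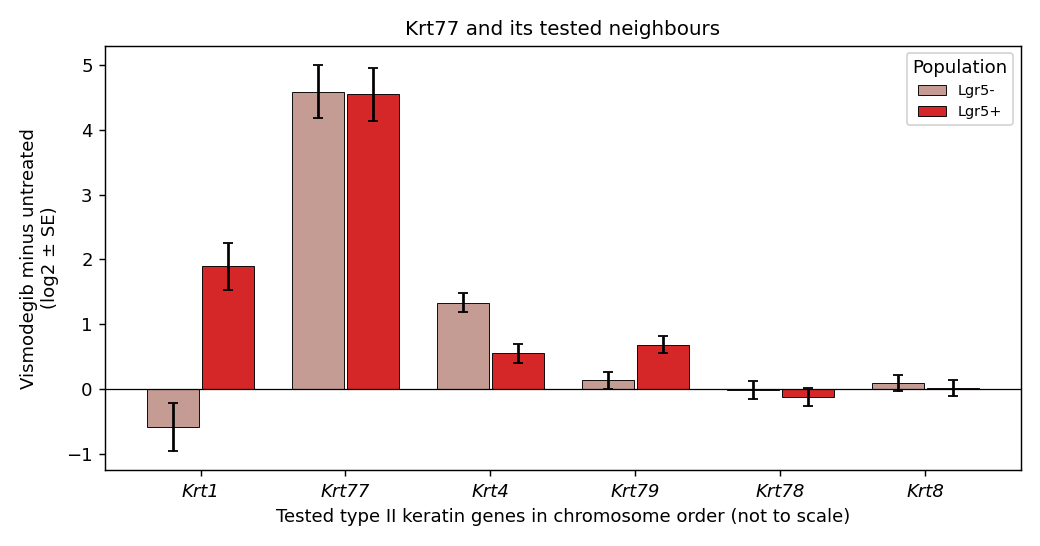
Vismodegib minus untreated log2 difference, with standard error, of the tested type II keratin genes around Krt77 in the order of their positions on chromosome 15, in Lgr5-negative (brown) and Lgr5-positive cells (red), n = 2 mice per group. Bars start at 0. Krt77 stands at 4.59 and 4.55, while its neighbours lie between −0.59 and 1.89.

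Other genes of suprabasal differentiation moved with Krt1 and Krt10 in the untreated comparison. Of 21 spinous and desmosomal genes, 10 were lower and 0 higher in untreated Lgr5-positive cells, with a median of −0.62 against 0.02 over all genes, of which 10.9% were lower and 6.21% higher. They included the serpin Serpinb2 (−4.67 ± 0.46), the differentiation peptide Krtdap (−2.43 ± 0.65), the glycolipid transfer protein Gltp (−2.38 ± 0.18) and the desmosomal cadherin Dsc1 (−2.02 ± 0.23). Of 23 granular layer and cornified envelope genes, 14 were lower and 0 higher at a median of −1.52, beside the same shares over all genes. The lipid transporter Abca12 (−4.27 ± 0.17) and the protease Casp14 (−3.78 ± 0.58), both needed for the barrier, led them.

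After vismodegib, 4 of the 21 spinous and desmosomal genes were higher and 0 lower in Lgr5-positive cells (median 0.53), among them Gltp (1.78 ± 0.18) and Lypd3 (1.07 ± 0.16), a surface protein of suprabasal keratinocytes. In Lgr5-negative cells 1 was higher, the calmodulin-like Calml3 (1.16 ± 0.14), and 0 lower (median 0.10). The granular and envelope list had 3 higher and 1 lower in Lgr5-positive cells (median 0.01) and 1 higher and 6 lower in Lgr5-negative cells (median −0.46). Abca12 (2.76 ± 0.17) was among those higher in Lgr5-positive cells, and the transglutaminase Tgm3 (−2.39 ± 0.15) among those lower in Lgr5-negative cells. The step of Krt77 in Lgr5-negative cells thus came with 1 call upward in each list. Shares over all genes were 6.37% higher and 4.51% lower in Lgr5-positive cells and 1.26% and 2.06% in Lgr5-negative cells.

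Of 31 transcription and Notch regulators of differentiation, 8 were lower and 3 higher in untreated Lgr5-positive cells, where 10.9% and 6.21% of all genes were. The median of the 31 was 0.10 against 0.02 over all genes, and Id3 (1.24 ± 0.25) was among the higher ones. The lower ones were led by Grhl3 (−2.64 ± 0.25), Ehf (−2.45 ± 0.25) and Ovol1 (−2.31 ± 0.25), factors that promote late differentiation. After vismodegib 9 were higher and 3 lower in Lgr5-positive cells, beside 6.37% and 4.51% of all genes, with Ehf at 2.09 ± 0.25 and Grhl3 at 1.57 ± 0.25. In Lgr5-negative cells 1 was higher, the receptor Notch3 (1.08 ± 0.19), and 0 lower, beside 1.26% and 2.06% of all genes. Notch3 was higher in Lgr5-positive cells too (1.39 ± 0.19), and in untreated mice it was lower in Lgr5-positive than in Lgr5-negative cells (−1.35 ± 0.19). Its interaction, 0.31 ± 0.26, did not pass (adjusted p = 0.579), whereas those of Ehf (2.10 ± 0.35, adjusted p = 0.0393) and Gltp (1.84 ± 0.25, adjusted p = 0.0225) did, as that of Krt10.

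The genes whose levels followed Krt77 most closely over the 8 arrays were Rgs4, a regulator of G protein signalling (r = 0.994), the glutathione transferase Gstm1 (0.988), Abhd14b (0.981), Alox12e, an epidermal lipoxygenase (0.980), Mab21l4 (0.977), Ccl7 (0.976), Spef1 (0.975) and Pdlim2 (0.974), out of 14397 genes outside the 6. Rgs4 lay between 5.61 and 10.76 and Alox12e between 9.47 and 11.61. For Krt1 they were Fgfbp1 (0.995), Shmt2 (0.989), Bak1 (0.988), Rab38 and Fam162a (0.986 each), Plpp2 and Eif6 (0.984 each) and Ctsc (0.983). For Krt10 they were Slc22a23 (0.991), Nipal2, Zbtb7c and Derl2 (0.988 each), Atp10a and Gltp (0.986 each), Snrpa (0.985) and Mall (0.984). The lists for the 3 keratins share no gene, and these likenesses describe 8 arrays in 4 groups.

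Markers of other cells and follicle parts also differed between the groups, and their part in the results was not tested. The mean log2 level of 22 macrophage, Langerhans and dendritic cell markers lay between 7.31 and 7.63 in untreated Lgr5-negative, 6.06 and 6.41 in untreated Lgr5-positive, 8.26 and 8.31 in treated Lgr5-negative and 8.54 and 8.86 in treated Lgr5-positive cells, and 0 of them were dim on all arrays. Of the 22, 9 were lower and 0 higher in untreated Lgr5-positive cells, and after vismodegib 18 were higher in Lgr5-positive and 5 in Lgr5-negative cells, with 0 lower in either. Between the treated populations, 3 of the 22 were higher and 0 lower in Lgr5-positive cells, where 0.472% of all genes passed in either direction. Over all genes, 10.9% were lower and 6.21% higher in the untreated comparison. In the vismodegib comparison, 6.37% were higher and 4.51% lower in Lgr5-positive cells, and 1.26% higher and 2.06% lower in Lgr5-negative cells. These shares also stand beside the counts in the rest of this paragraph and in the next. The mean log2 level of the 12 upper follicle and infundibulum markers lay between 10.33 and 10.51, 9.25 and 9.77, 10.87 and 10.91, and 10.60 and 10.81 in the same order of groups. Of these, 7 were lower and 1 higher in untreated Lgr5-positive cells, and after vismodegib 7 were higher in Lgr5-positive and 2 in Lgr5-negative cells, with 0 lower in either.

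For markers of T cells, melanocytes, Merkel cells, dermal fibroblasts, and endothelial cells and pericytes, the mean of each list lay between 5.11 and 6.26 on single arrays. The list mean of the inner root sheath and hair shaft keratins lay between 5.65 and 5.92 on all arrays, and that of the sebaceous gland markers between 7.09 and 7.91. At or under the 4.85 set for dim genes on all arrays were 4 of 12 fibroblast markers (Pdgfra, Lum, Col6a3 and Dpt), 2 of 11 endothelial and pericyte markers (Tek and Tie1) the melanocyte receptor Kit and the hair keratin Krt35. In untreated Lgr5-positive cells 2 of 10 T cell markers, 2 of 11 sebaceous markers and 1 fibroblast marker were lower. There, 1 sebaceous, 1 fibroblast and 1 endothelial marker were higher, and 0 of the melanocyte and Merkel cell markers passed. Of the inner root sheath and hair shaft keratins, 1 was higher by limma (Krt71, 0.53 ± 0.14, adjusted p = 0.0415) and 1 lower (Krt73, −0.42 ± 0.11, adjusted p = 0.0436). After vismodegib in Lgr5-positive cells, Vim, which fibroblasts and immune cells both express, was higher (3.26 ± 0.22, adjusted p = 0.000324). The melanocyte regulator Mitf was higher too (2.14 ± 0.23, adjusted p = 0.0016). It was the only call among 7 melanocyte markers tested, whose median was −0.14. Also higher were 1 sebaceous marker and 1 inner root sheath keratin. Lower were Fbln1 (−1.40 ± 0.33, adjusted p = 0.0343), Eng (−0.47 ± 0.12, adjusted p = 0.0466) and 1 sebaceous marker. In Lgr5-negative cells 1 inner root sheath keratin was higher and 1 sebaceous marker lower. The T cell and Merkel cell lists had 0 calls by limma in either population, with unadjusted p-values under 0.05 for 3 and 2 of 10 T cell markers and for 1 and 0 of 5 Merkel cell markers in Lgr5-positive and Lgr5-negative cells. The mean log2 level of the 4 wound and companion layer keratins lay between 10.26 and 10.30 on the untreated Lgr5-negative arrays. On the arrays of the other groups this list mean lay between 8.61 and 9.16. Of these 4 keratins, 3 were lower and 1 higher in untreated Lgr5-positive cells. After vismodegib 1 was higher in Lgr5-positive and 2 were lower in Lgr5-negative cells.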

How the data were processed

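RNA was measured on 8 Affymetrix mouse arrays of sorted cells. The deposited values are log2 signals per probe set, made by the authors with RMA (version not stated), per the submitters' processing notes; RMA corrects background and normalises by quantiles between arrays, which can compress large differences. They were used as deposited. The labels spell the Lgr5-negative population Lrg5-, read here as Lgr5-.

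Probe sets were named by GEO's platform annotation: 28898 of 45141 had 1 symbol, 551 several and 15692 none. The one with the highest mean stood for a gene. A gene was tested if 2 or more arrays exceeded 4.85, the lower quartile of the table (14403 of 17097). The model was fitted by limma 3.58.1 under R 4.3.3, with a mean for each of the 4 groups, moderated variances and two-sided p-values (4 degrees of freedom from the residuals, 3.53 from the prior); where vismodegib was compared across populations, each mouse entered as the mean of its arrays. Adjustment was by Benjamini and Hochberg over all genes tested, with a threshold of 0.05. The procedure was tested on simulated data.

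The keratins and gene lists were chosen with earlier results of these data known. Named list genes are among the 6 with the largest differences past the threshold in a list and comparison, and likeness names the 8 highest correlations. Alternatives were no filter or a filter at the median, the mean of probe sets, cyclic loess, an intensity trend, array weights, only the 4 arrays compared, a mouse or mouse number block, and leaving out each array. Both populations of a mouse come from the same animal, which pairs them; in deviations from group means their correlation over genes was 0.142 in untreated and 0.211 in treated mice. Mouse numbers do not pair treatments.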

Additional observations from a re-analysis of the deposited data

Results flagged for a closer look

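The vismodegib difference of Krt10 was larger in Lgr5-positive than in Lgr5-negative cells by 1.46 ± 0.19 on the log2 scale (limma, adjusted p = 0.0209), a test of the difference between the populations' effects. The choice of the genes used the vismodegib differences that this test is made of, which limits what its p shows. Over the alternatives with all mice the adjusted p lay between 0.0117 and 0.0278, and without single arrays between 0.0155 and 0.108.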

How the results depend on the processing

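The direction and call of Krt1 and Krt10 between untreated populations and over both treatments were kept in every alternative run, and the vismodegib differences of Krt77 lay between 4.48 and 4.6 in either population in fits with all mice. In untreated mice the population difference of Krt77 passed with the replicate block of the mouse (−1.36, adjusted p = 0.0452) and with a filter at the median (−1.36, adjusted p = 0.0437). In the other fits with all mice it did not pass, with an adjusted p between 0.0542 and 0.0968. It lay between −1.95 and −0.76 without single arrays. The interaction of Krt1 (2.48, adjusted p = 0.0356) passed with the mouse as a block; the block changed no other call of the 6 keratins. Without single arrays this interaction lay between 1.85 and 3.11 and that of Krt10 between 1.31 and 1.61. In the same fits Krt77 lay between −1.68 and −1.08 over both treatments and between 4.0 and 5.19 for vismodegib in Lgr5-negative cells, and in Lgr5-positive cells Krt1 lay between 1.26 and 2.52 and Krt10 between 1.53 and 1.83. With a block of the mouse number, which pairs no animals, 1470 genes (1566 without it) and 357 (478) were called in the vismodegib comparisons of the Lgr5-positive and the Lgr5-negative population.

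Counts of all genes called moved more. For the populations after vismodegib 68 became 36 with no filter, 11 with only the 4 arrays compared and 105 with the mouse block, and 478 became 234 for vismodegib in Lgr5-negative cells with only the 4 arrays compared. Without single arrays the counts lay between 543 and 1823 (vismodegib, Lgr5-positive), 65 and 523 (Lgr5-negative), 582 and 2852 (populations untreated, 2466 with all arrays), 18 and 107 (treated), 742 and 2709 (both treatments, 1989 with all arrays) and 2 and 251 (interaction, 202 with all arrays). For vismodegib over both populations, where a whole mouse was left out, a choice made after seeing the data, 974 became between 330 and 733; leaving out 1 array was not run there, since it would leave a mouse with 1 population. The causes were not tested. With 2 mice per group, missing calls do not show that values were equal.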
